A study of Homo sapiens with 9 samples.

Results

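CHRM3, ITPR1, ATP2B1, CAMK4 and PPEF1 are 5 genes of muscarinic and calcium signalling, taken from the 7713 genes that had at least 1 probe set with a single gene symbol. Every probe set carrying 1 of these symbols in the array's gene annotation was used, which gave 1 probe set per gene: 214596_at for CHRM3, 203710_at for ITPR1, 215716_s_at for ATP2B1, 210349_at for CAMK4 and 206547_s_at for PPEF1. All 5 lay above the filter on dim probe sets. The probe sets of ATP2B1 and PPEF1 are of the type, marked s, whose probes can match more than 1 transcript.

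LAN-5 is an established neuroblastoma line of human origin, and its RNA was measured on 9 Affymetrix 1-colour arrays. The groups were untreated cells, cells given S100B at 0.5 nM and cells given S100B at 5 µM, with 3 arrays each, and per the series design these are biological replicates. S100B is a small EF-hand protein that astrocytes secrete. All groups are this 1 line grown alike in complete DMEM, and no vehicle or treatment time is given in the sources used here.

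The muscarinic M3 receptor encoded by CHRM3 binds acetylcholine and couples to G proteins of the Gq family, which activate phospholipase C. The inositol trisphosphate so made opens the channel ITPR1 in the endoplasmic reticulum, and calcium enters the cytosol. The pump ATP2B1 then moves calcium out across the plasma membrane, while calcium bound to calmodulin activates kinases such as CAMK4, which phosphorylates the transcription factor CREB. PPEF1 is a serine/threonine phosphatase with EF-hand motifs of its own, best known from sensory neurons. Muscarinic responses of this kind have long been studied in neuroblastoma lines.

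The 5 genes were chosen by their differences between the dose groups on these same arrays, so their differences between groups are given as a description and nothing is tested with them. The values behind the choice were limma's adjusted p of CHRM3 and PPEF1, at 0.0228 and 0.0321 for 5 µM against untreated and 0.0104 and 0.0154 for 5 µM against 0.5 nM. The adjusted p of ITPR1, ATP2B1 and CAMK4 lay at 0.63 to 0.71 for 5 µM against untreated. Values are log2 expression per probe set as deposited, and levels of different probe sets are not set against each other.

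The arrays resembled each other closely, with correlations over 5830 tested probe sets of 0.993 to 0.997 within groups and 0.994 to 0.997 between groups. Of 18 neuroblastoma markers, 16 were on the array and 14 lay above the filter, among them GATA3, DBH and CHGA. Their mean per array was 9.18 to 9.31 log2 at 5 µM, 9.20 to 9.27 at 0.5 nM and 9.05 to 9.25 in untreated cells. Of the leukocyte, epithelial and muscle markers, 4 of 7, 4 of 8 and 3 of 8 on the array lay above the filter, with means per array of 5.74 to 6.05 at 5 µM, 5.79 to 6.03 at 0.5 nM and 5.79 to 6.09 in untreated cells. Among these markers PTPRC and EPCAM, at 4.77 and 5.00 over all arrays, lay below the filter. The leukocyte marker CD79A, at 6.75, and the muscle markers MYOG and DES, at 6.46 and 6.06, lay above it. Of the markers above it, CD74 differed by -0.32 ± 0.10 at 5 µM and -0.25 ± 0.10 at 0.5 nM against untreated (SE, limma's adjusted p = 0.478 and 0.9999). ELF3 differed by -0.24 ± 0.05 and -0.14 ± 0.05 (adjusted p = 0.208 and 0.9999), and neither gene's treated arrays overlapped the untreated ones. Over all tested probe sets, treated arrays lay wholly below the untreated ones in 9.47% at 5 µM and 5.01% at 0.5 nM. For 11 mesenchymal and Schwann-like markers the mean was 6.71 to 6.75 at 5 µM, 6.74 to 6.76 at 0.5 nM and 6.75 to 6.81 in untreated cells. Of these, TWIST1 differed by -0.19 ± 0.08 at 5 µM against untreated (SE, limma's adjusted p = 0.707). The neuroblastoma markers above the filter ranged from -0.10 to 0.21 at 5 µM against untreated. The highest, SLC18A1, differed by 0.21 ± 0.06 (adjusted p = 0.463). All its 5 µM arrays lay above the untreated ones, as in 2.86% of all tested probe sets. CHGA differed by 0.19 ± 0.09 at 0.5 nM against untreated (adjusted p = 0.9999). ELAVL4 differed by -0.18 ± 0.07 for 5 µM minus 0.5 nM (adjusted p = 0.994). The 14 neuroblastoma markers above the filter had a median difference from untreated of 0.09 at 5 µM, against -0.024 for all tested probe sets. At 0.5 nM that median was 0.08, against -0.016 for all. For 5 µM minus 0.5 nM it was 0.01, against -0.0089 for all. The part of these shifts in any gene below was not tested.

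CHRM3 was lower in cells given 5 µM S100B. Its 3 arrays read 7.34, 7.33 and 7.44 log2 in untreated cells, 7.61, 7.33 and 7.49 at 0.5 nM, and 6.95, 6.84 and 6.86 at 5 µM. All arrays at 5 µM lay below the 6 others, with a gap of 0.38 log2 to the nearest of them, while the 0.5 nM and untreated arrays overlapped. The mean was 6.88 ± 0.06 at 5 µM and 7.37 ± 0.06 in untreated cells (SD, n = 3 each), a difference of -0.49 ± 0.07 (SE), or 71.2% of the untreated level. Against 0.5 nM, which averaged 7.48 ± 0.14 (SD, n = 3), the 5 µM level was 66.1%, a difference of -0.60 ± 0.07 (SE). The 0.5 nM mean differed from untreated by 0.11, with a 95% interval of -0.06 to 0.27, and was 0.04 without 0.5 nM replicate 1 and 0.18 without 0.5 nM replicate 2. In such bulk RNA, fewer cells with the transcript and less transcript per cell cannot be told apart.

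**Figure D1:**
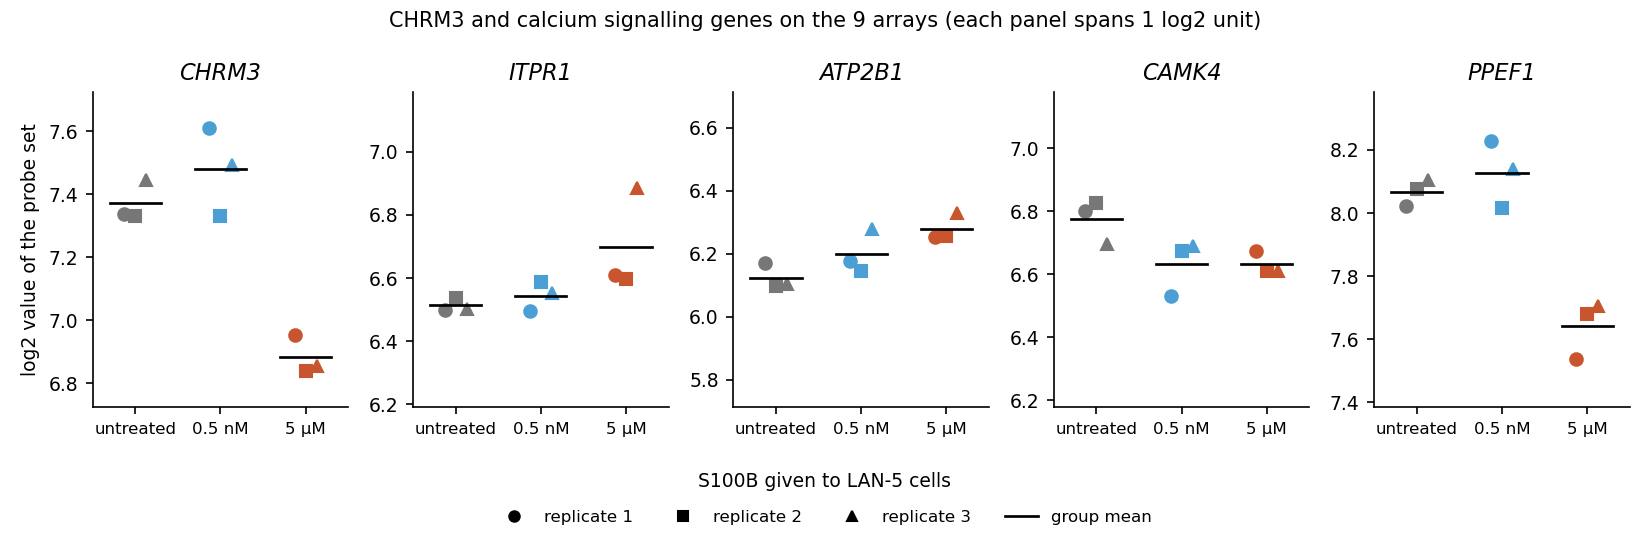
Log2 value of each probe set (y axis; each panel spans 1 log2 unit) on the 9 arrays, by S100B dose (x axis); symbols mark replicate numbers and the bar the group mean of 3 arrays. For CHRM3 the 5 µM arrays sit at 6.84 to 6.95 and the others at 7.33 to 7.61, and for PPEF1 at 7.54 to 7.71 and 8.01 to 8.23, while the other 3 genes span under 0.4 log2 each.

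The start region of CHRM3 is shown because CHRM3 and PPEF1 were the pair of genes that lay lower together. The sequence covers the 250 bases before the 1 start that the RefSeq promoter table lists (chr1:239386318-239386567, GRCh38.p14, plus strand), 5′ to 3′. Capitals would mark a match to any of 5 motifs on either strand, and this window has none.
CHRM3: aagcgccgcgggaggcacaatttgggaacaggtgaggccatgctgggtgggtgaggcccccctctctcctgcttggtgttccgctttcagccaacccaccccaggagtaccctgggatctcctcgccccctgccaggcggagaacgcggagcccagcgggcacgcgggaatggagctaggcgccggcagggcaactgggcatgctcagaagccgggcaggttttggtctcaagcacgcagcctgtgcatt

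The motifs searched were the cyclic AMP response element TGACGTCA bound by CREB, the sterol regulatory element TCACNCCAC, the E-box CACGTG, the GC box GGGCGG and the NFAT core GGAAA. No motif contains another. Over all 35116 windows of this length, 1.65% held the first, 0.883% the sterol element, 6.34% the E-box, 42.6% the GC box and 55.6% the NFAT core. The absence of these letters says nothing of the factors themselves.

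The other muscarinic receptors did not pass at 5 µM. CHRM2, the M2 receptor that couples to Gi proteins, was at 6.10 log2 at 5 µM and 6.26 in untreated cells, a difference of -0.15 ± 0.08 (SE, limma's adjusted p = 0.746). CHRM4, which also couples to Gi, was at 6.60 and 6.67, a difference of -0.07 ± 0.09 (adjusted p = 0.922). CHRM5, which like CHRM3 couples to Gq, lay below the filter at a mean of 5.76 over all arrays, and its difference was -0.14 ± 0.07 in a fit without the filter (adjusted p = 0.653). At 0.5 nM against untreated, CHRM2, CHRM4 and CHRM5 differed by -0.13, -0.10 and -0.17 (adjusted p = 0.9999, 0.9999 and 0.979). For 5 µM minus 0.5 nM they differed by -0.03, 0.03 and 0.03. CHRM1 had no probe set of its own symbol here. Whether CHRM3 differed from its relatives in its change was not tested.

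ITPR1, the inositol trisphosphate receptor, lay somewhat higher at 5 µM, and 1 array carried much of that difference. Its arrays read 6.50, 6.54 and 6.50 log2 in untreated cells, 6.49, 6.59 and 6.55 at 0.5 nM, and 6.61, 6.60 and 6.89 at 5 µM. All 5 µM arrays lay above the 6 others, replicates 1 and 2 narrowly and replicate 3 clearly. The 5 µM mean was 6.70 ± 0.16 and the untreated mean 6.51 ± 0.02 (SD, n = 3 each), a difference of 0.18 ± 0.08 (SE), or 113.6% of untreated. Without 5 µM replicate 3 the difference from untreated was 0.09, and that between 5 µM and 0.5 nM was 0.06, against 0.15 with it. The other inositol trisphosphate receptors did not pass: ITPR3 differed by -0.05 ± 0.06 (SE, limma's adjusted p = 0.916), and ITPR2, below the filter at 4.85 over all arrays, by 0.03 ± 0.06 (adjusted p = 0.93 without the filter).

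ATP2B1, the plasma membrane calcium pump, was slightly higher at 5 µM, with 0.5 nM between. It read 6.17, 6.10 and 6.10 log2 in untreated cells, 6.18, 6.14 and 6.28 at 0.5 nM, and 6.25, 6.26 and 6.33 at 5 µM. The 5 µM arrays lay above all untreated arrays by at least 0.08 and overlapped those at 0.5 nM, which in turn overlapped the untreated ones. The mean was 6.28 ± 0.04 at 5 µM and 6.12 ± 0.04 in untreated cells (SD, n = 3 each), a difference of 0.16 ± 0.06 (SE), or 111.4% of untreated. At 0.5 nM the mean was 6.20 ± 0.07 (SD, n = 3), and its difference of 0.08 from untreated was 0.04 without 0.5 nM replicate 3. The probe set of ATP2B1 averaged 6.20 over all arrays, not far above the filter's cutoff of 5.95. Of the other plasma membrane pumps, ATP2B2 differed by 0.01 ± 0.06 and ATP2B3 by 0.0049 ± 0.09 at 5 µM (SE, limma's adjusted p = 0.984 and 0.996), and ATP2B4 lay below the filter.

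CAMK4, the calmodulin-dependent kinase that acts on CREB, was slightly lower at both doses. It read 6.80, 6.83 and 6.70 log2 in untreated cells, 6.53, 6.67 and 6.69 at 0.5 nM, and 6.67, 6.61 and 6.61 at 5 µM. No array of treated cells reached the lowest untreated array, which stood 0.02 above the highest at 5 µM and 0.0076 above the highest at 0.5 nM. The differences from untreated (6.77 ± 0.07) were -0.14 ± 0.06 (SE) for 5 µM (6.63 ± 0.04) and -0.14 ± 0.06 for 0.5 nM (6.63 ± 0.09; means with SD, n = 3 each). Both dose groups shared the same untreated arrays. Between the doses, 5 µM minus 0.5 nM was 0.00095, with a 95% interval of -0.13 to 0.14. Without 0.5 nM replicate 1 the 0.5 nM difference from untreated was -0.09 and that between the doses -0.05. The kinase CAMKK2, which phosphorylates CAMK4, differed by -0.05 ± 0.06 at 5 µM (limma's adjusted p = 0.916), and CREB1 by -0.02 ± 0.07 (adjusted p = 0.98). These 2 genes were named after their values were seen.

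PPEF1, the EF-hand phosphatase, was lower at 5 µM, as CHRM3 was. It read 8.02, 8.08 and 8.10 log2 in untreated cells, 8.23, 8.01 and 8.14 at 0.5 nM, and 7.54, 7.68 and 7.71 at 5 µM. The 5 µM arrays lay below all 6 others with a gap of 0.31, and the 0.5 nM arrays spanned the untreated ones on both sides. The mean was 7.64 ± 0.09 at 5 µM and 8.07 ± 0.04 in untreated cells (SD, n = 3 each), a difference of -0.43 ± 0.07 (SE), or 74.4% of untreated. Against 0.5 nM (8.13 ± 0.11) the difference was -0.49 ± 0.07 (SE), or 71.4%. At 0.5 nM it was 0.06 against untreated, with a 95% interval of -0.09 to 0.21, and was 0.0091 without 0.5 nM replicate 1, 0.12 without 0.5 nM replicate 2 and 0.04 without untreated replicate 1. The related phosphatase PPEF2 lay below the filter at 4.61 over all arrays, and PPP5C, of the same phosphatase family, differed by -0.04 ± 0.10 at 5 µM (limma's adjusted p = 0.974).

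The RefSeq table lists 3 starts for PPEF1, and the array does not tell which of them the transcript measured here used. The 250 bases before each are shown, beside the CHRM3 window above, at chrX:18690713-18690962, chrX:18699815-18700064 and chrX:18707395-18707644 (GRCh38.p14, plus strand), 5′ to 3′ with motif matches in capitals.
PPEF1 start 1: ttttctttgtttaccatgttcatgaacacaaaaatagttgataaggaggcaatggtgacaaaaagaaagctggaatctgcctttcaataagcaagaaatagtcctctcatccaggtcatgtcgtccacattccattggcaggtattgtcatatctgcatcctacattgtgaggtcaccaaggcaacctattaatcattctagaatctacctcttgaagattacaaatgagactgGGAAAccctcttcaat
PPEF1 start 2: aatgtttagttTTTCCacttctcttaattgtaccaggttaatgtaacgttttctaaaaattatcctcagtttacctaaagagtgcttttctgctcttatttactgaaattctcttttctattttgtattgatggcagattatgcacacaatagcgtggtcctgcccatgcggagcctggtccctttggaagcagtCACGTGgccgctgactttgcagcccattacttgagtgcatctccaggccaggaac
PPEF1 start 3: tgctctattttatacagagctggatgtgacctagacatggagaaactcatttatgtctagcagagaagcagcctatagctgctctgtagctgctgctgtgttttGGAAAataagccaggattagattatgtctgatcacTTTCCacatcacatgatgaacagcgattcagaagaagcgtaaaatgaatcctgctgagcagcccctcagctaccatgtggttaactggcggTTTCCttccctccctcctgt
The E-box matched once, 55 bases before start 2, and the NFAT core, or TTTCC on the other strand, matched 1, 1 and 3 times. The windows of PPEF1 were 38.8% to 45.2% G and C and that of CHRM3 66%. The cyclic AMP and sterol elements matched in 0 of the 10 listed windows of the 5 genes, including the 1 of ITPR1, the 2 of ATP2B1 and the 3 of CAMK4.

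Arrays at 5 µM did not overlap the untreated arrays in 5 of 5, lower for CHRM3, PPEF1 and CAMK4 and higher for ITPR1 and ATP2B1. Over all 5830 tested probe sets this held for 12.3%, with 9.47% lower and 2.86% higher. CHRM3 and PPEF1 were also 2 of the 17 probe sets (0.292%) lower at an adjusted p under 0.05, and 0 of 5830 (0%) were higher. Nothing is read from these counts, since this contrast chose the genes. At 0.5 nM, CAMK4 alone of the 5 did not overlap untreated, against 6.98% of all probe sets, 5.01% lower and 1.97% higher, with 0 of 5 under the adjusted threshold. Between the doses, arrays of CHRM3, PPEF1 and ITPR1 did not overlap, 3 of 5 against 6.98% of all probe sets, 4.63% lower and 2.35% higher, and for ITPR1 the gap was 0.0093 log2.

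**Figure D2:**
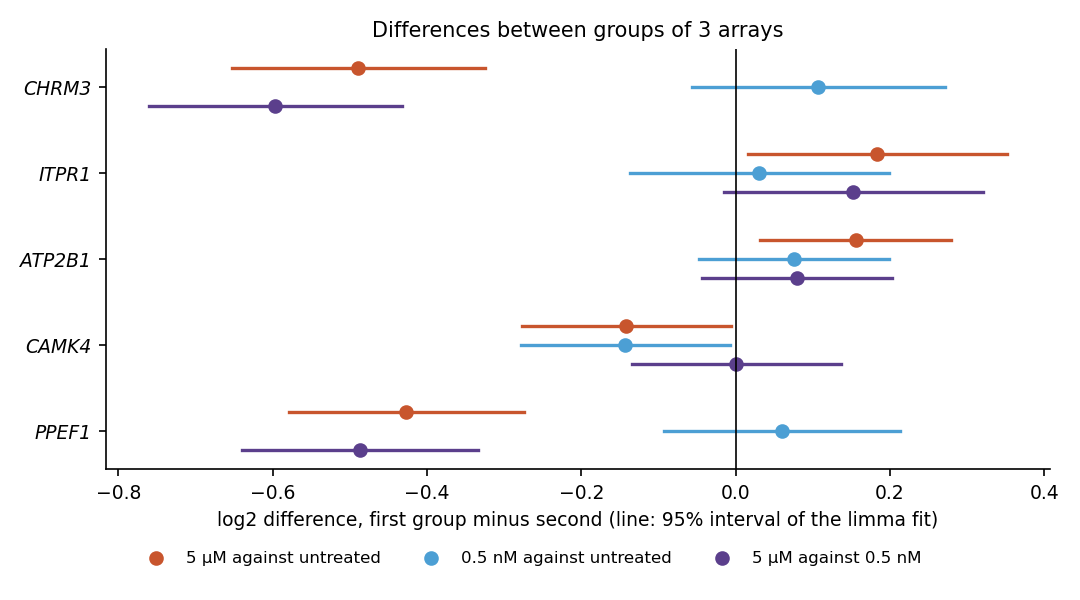
Log2 difference between groups of 3 arrays for each gene (x axis, first group minus second) with the 95% interval of the limma fit as a line, in 3 comparisons (colours). CHRM3 and PPEF1 lie at -0.43 to -0.60 in both comparisons with 5 µM and near 0 at 0.5 nM, and the differences of ITPR1, ATP2B1 and CAMK4 lie within 0.2 of 0.

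The whole-array counts of probe sets at an adjusted p under 0.05 depended on single arrays. The shares of non-overlapping probe sets were not recomputed without single arrays. For 5 µM against untreated the count of 17 was 4, 7 and 4 without untreated replicates 1, 2 and 3. It was 6 (1 of them higher), 8 and 9 without 5 µM replicates 1, 2 and 3. Between the doses 15 probe sets differed, 14 lower (0.24%) and 1 higher (0.0172%). Leaving out 0.5 nM replicate 1, 2 or 3 gave a count of 5, 6 or 3, and leaving out 5 µM replicate 1 or 2 gave 8 or 4. At 0.5 nM against untreated limma called 0 probe sets, an unmoderated test 0, and 192 had an unadjusted p under 0.05. Over the 9 fits that left out 1 array, CHRM3 at 5 µM against untreated ranged from -0.52 to -0.45 and PPEF1 from -0.46 to -0.37. The limma adjusted p was under 0.05 in 3 of these 9 fits for CHRM3 and in 2 of 9 for PPEF1. For CHRM3 it was over 0.05 without any 1 of the untreated or 5 µM arrays, and for PPEF1 also without 0.5 nM replicate 3. These are the values that chose the genes and support nothing.

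Genes most like CHRM3 and PPEF1 were found by Pearson's correlation of log2 values over the 9 arrays, among 5146 genes each. For CHRM3 they were HMGCS1 (r = 0.966), ODC1 (0.958), MSMO1 (0.958), PPEF1 (0.953), PTP4A2 (0.94) and INSIG1 (0.939). For PPEF1 they were SQLE (0.956), HMGCS1 (0.955), CHRM3 (0.953), IDH1 (0.953), DHCR7 (0.948) and MSMO1 (0.945). HMGCS1, MSMO1, SQLE and DHCR7 encode enzymes of cholesterol synthesis, INSIG1 a sterol-regulated protein of the endoplasmic reticulum, ODC1 the first enzyme of polyamine synthesis, IDH1 an NADPH-producing dehydrogenase and PTP4A2 a phosphatase. These correlations are descriptions over arrays that share 3 group means, and after each group's mean was taken out CHRM3 and PPEF1 correlated at 0.481, ranked 924 of 5146 genes for CHRM3.

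The sterol genes had differences larger in size than those of CHRM3 and PPEF1 at 5 µM, and whether they differ from these was not tested. HMGCS1 read 7.76, 7.80 and 7.73 log2 at 5 µM, against 8.82, 8.74 and 9.17 in untreated cells. SQLE read 9.54, 9.91 and 9.90 at 5 µM, against 10.4, 10.4 and 10.5 in untreated cells, and 5 µM replicate 1 was the lowest for SQLE as it was for PPEF1, while for CHRM3 that array was the highest of the 3. Of the other genes, IDH1 differed by -0.27 ± 0.07 (SE, limma's adjusted p = 0.324), ODC1 by -0.14 ± 0.05 (adjusted p = 0.613) and PTP4A2 by -0.09 ± 0.05 (adjusted p = 0.793), none past the threshold.

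**Figure D3:**
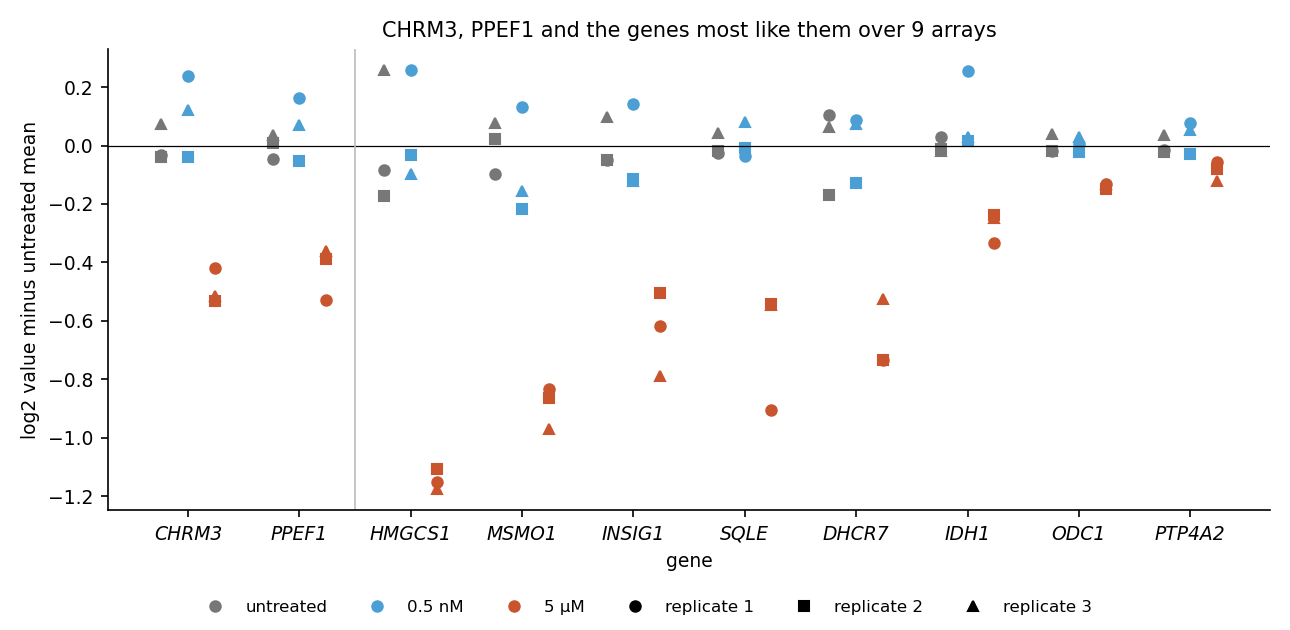
Log2 value minus the gene's untreated mean (y axis) on each of the 9 arrays for CHRM3, PPEF1 and the 8 other genes most like either of them (x axis); colours mark dose and symbols replicate numbers. At 5 µM the CHRM3 and PPEF1 arrays lie at -0.53 to -0.36 and those of HMGCS1 at -1.18 to -1.11.

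The other 3 genes had different neighbours. Those most like ITPR1 were DYRK1A (r = 0.953), CREBBP (0.952), DUSP8 (0.942), TCF4 (0.938), PTPN9 (0.926) and TFAP2A (0.923). DYRK1A, a kinase that opposes NFAT, differed from untreated by 0.17 log2 at 5 µM, and CREBBP, the CREB coactivator, by 0.17. For ATP2B1 they were UGCG (0.965), RAB14 (0.883), RBL2 (0.823), RAB5A (0.815), TCF4 (0.807) and DDX42 (0.804). UGCG, which makes glucosylceramide, differed by 0.32 at 5 µM and 0.12 at 0.5 nM. For CAMK4 they were GPR143 (0.937), SSTR1 (0.917), APOA4 (0.912), CDH15 (0.911), VRK3 (0.909) and LILRB1 (0.899). Among the 5 genes themselves, CHRM3 correlated with ITPR1 at -0.713 and with ATP2B1 at -0.604, and ITPR1 with ATP2B1 at 0.703 over the 9 arrays. These values carry the group differences by which the genes were chosen. After each group's mean was taken out they were -0.364, 0.065 and 0.394.

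Around the 5 genes, 16 lists of the pathway held 313 other genes, of which 246 had a probe set and 156 lay above the filter. By limma 0 of the 156 passed at 5 µM against untreated, with 0 by an unmoderated test and 13 at an unadjusted p under 0.05, 3 higher and 10 lower, which is 8.33% against 6.84% of all tested probe sets (1.49% higher and 5.35% lower). Their median difference was -0.026 log2 and that of all probe sets -0.024. The lowest was VDAC1, the main pore of the mitochondrial outer membrane, at -0.31 ± 0.09 (SE, adjusted p = 0.463), and the highest RGS7, which speeds G protein inactivation, at 0.27 ± 0.10 (adjusted p = 0.68). The genes were chosen with earlier results of these arrays known.

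At the receptor end, 16 other Gq-coupled receptors had a median of -0.08 at 5 µM, and the 3 with an unadjusted p below 0.05 were lower (5.35% of all probe sets were lower and 1.49% higher at that threshold). The smallest p was that of TACR2, a neurokinin receptor, at 6.50 log2 at 5 µM and 6.76 in untreated cells, a difference of -0.26 ± 0.07 (SE, limma's adjusted p = 0.331). Among 16 G protein subunits and regulators, with a median of -0.01, it was the arrestin ARRB1, at -0.20 ± 0.07 (adjusted p = 0.607). GNAQ and GNA11, the alpha subunits that couple the M3 receptor, were at 0.0014 ± 0.16 and -0.0086 ± 0.05, so GNAQ was measured loosely. Among 6 phospholipases C the smallest p was that of PLCG2, at -0.15 ± 0.07 (adjusted p = 0.74). PLCB3 and PLCB4, of the type Gq activates, were at 0.04 ± 0.10 and 0.05 ± 0.13. GNAQ, GNA11, PLCB3 and PLCB4 were named after their values were seen.

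Downstream of phospholipase C, 8 genes of phosphoinositide turnover had a median of -0.0021 at 5 µM, with PIP5K1A, which makes the lipase's substrate, at -0.15 ± 0.06 (SE, limma's adjusted p = 0.677). The 11 genes of diacylglycerol and protein kinase C had a median of -0.02, with PRKCA at 0.24 ± 0.11 (adjusted p = 0.74). For 10 calcium release channels and partners the median was -0.04 and the smallest p that of VDAC1 above. For 9 pumps and exchangers the median was 0.01, with the exchanger SLC24A1 at 0.05 ± 0.05 (adjusted p = 0.909). For 9 voltage-gated channels it was -0.06, with the subunit CACNB1 at 7.03 log2 at 5 µM and 7.27 in untreated cells, a difference of -0.24 ± 0.07 (adjusted p = 0.463). No member of these lists passed.

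Among calcium's effectors at 5 µM, 9 genes of calmodulin and its kinases had a median of -0.05, with neurogranin, NRGN, which binds calmodulin, at -0.18 ± 0.07 (SE, limma's adjusted p = 0.68). The 7 CREB-related genes had a median of -0.02 with EGR1, an immediate early gene, at 0.11 ± 0.07 (adjusted p = 0.785). The 10 calcineurin and NFAT genes had a median of 0.0083 with the calcineurin inhibitor CABIN1 at -0.17 ± 0.08 (adjusted p = 0.729), and 8 phosphatases of the PPEF1 family a median of 0.0015 with PPP4C at 0.09 ± 0.06 (adjusted p = 0.811). For 18 EF-hand sensors and buffers the median was -0.04, with the centrin CETN2 at -0.24 ± 0.08 (adjusted p = 0.582). For 6 calcium-binding proteins of the endoplasmic reticulum it was -0.05 with HRC at -0.07 (adjusted p = 0.901), and for 11 other cholinergic genes 0.02 with the nicotinic subunit CHRNB1 at 0.14 ± 0.06 (adjusted p = 0.707). No gene passed in these lists either.

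**Figure D4:**
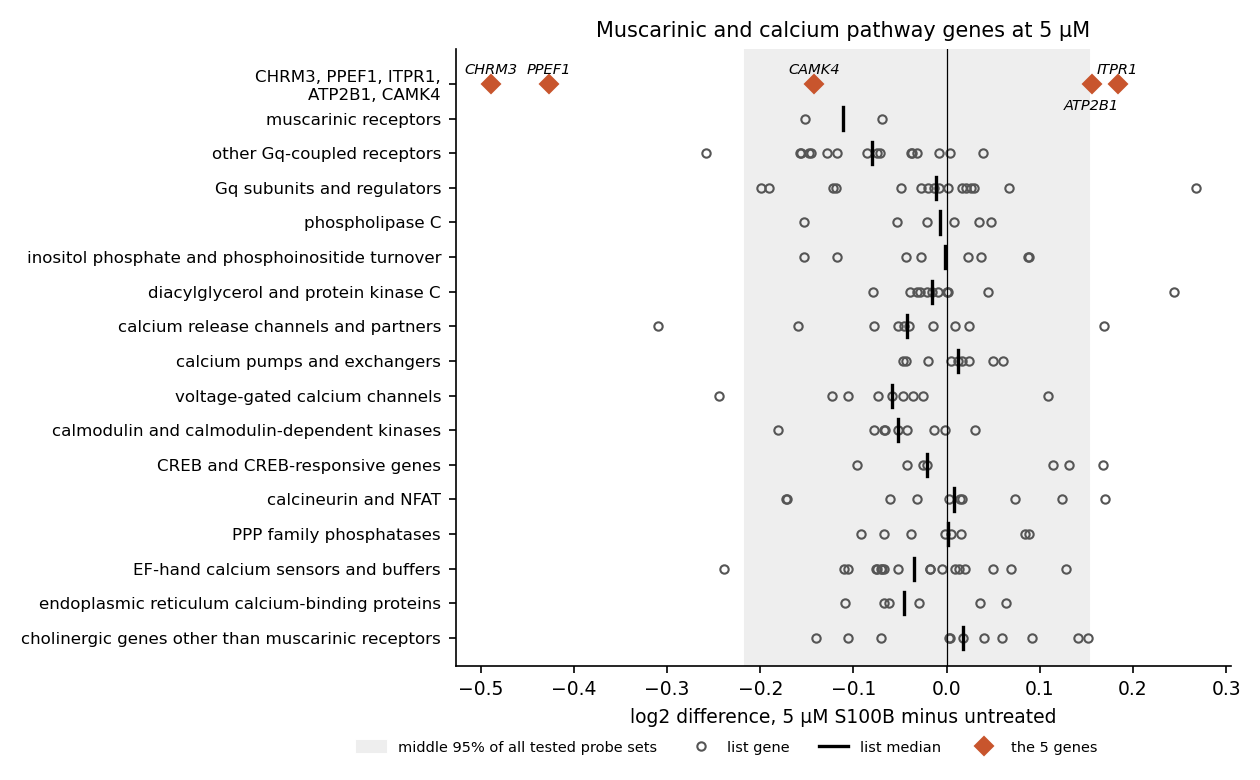
Log2 difference of 5 µM minus untreated (x axis) for the 5 genes (diamonds, top row) and for each of the 156 other pathway genes above the filter (circles), by list (rows), with list medians as black bars; the grey band holds the middle 95% of all tested probe sets, -0.22 to 0.15. CHRM3 and PPEF1 lie left of every other pathway gene, ITPR1 and ATP2B1 just right of the band and CAMK4 inside it. Nothing is read from these places, since this contrast chose the 5 genes.

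At 0.5 nM the 156 pathway genes had a median of -0.018 against untreated, and that of all probe sets was -0.016. By limma 0 passed, by an unmoderated test 0, and 4 had an unadjusted p under 0.05 (2.56%, against 3.29% of all, 0.806% higher and 2.49% lower). They ranged from TACR2 at -0.16 ± 0.07 to the calpain CAPN1 at 0.25 ± 0.09 (SE, limma's adjusted p = 0.9999 for both). The smallest p of the other lists were those of CHRM2 at -0.13, ARRB1 at -0.15, PLCG2 at -0.11, the inositol phosphatase INPP1 at -0.10, DGKG at -0.07, FKBP1B at -0.11, ATP2B3 at 0.09, CACNA1F at -0.10, NRGN at -0.12, NR4A1 at -0.07, NFATC4 at -0.13, PPP1CB at 0.14, HRC at -0.10 and the nicotinic subunit CHRNA2 at -0.13.

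Between the doses, the pathway genes had a median of -0.013 for 5 µM minus 0.5 nM, against -0.0089 for all probe sets. By limma 0 of 156 passed, by an unmoderated test 0, and 7 had an unadjusted p under 0.05 (4.49%, against 4.65% of all, 1.73% higher and 2.92% lower). The smallest p belonged to FKBP1B, which binds and steadies calcium release channels, at 9.04 log2 at 5 µM and 8.76 at 0.5 nM, a difference of 0.28 ± 0.06 (SE, limma's adjusted p = 0.143). CETN2 differed by -0.29 ± 0.08 (adjusted p = 0.633), CACNB1 by -0.23 ± 0.07 (adjusted p = 0.861), and RGS7 and INPP1 by 0.29 ± 0.10 and 0.18 ± 0.07 (adjusted p = 0.945 for both). In the other lists the smallest p were those of CHRM4 at 0.03, ADRA1D at -0.09, PLCB2 at 0.06, PRKCA at 0.20, SLC24A1 at 0.07, NRGN at -0.06, DUSP1 at 0.18, RCAN1 at 0.10, PPP2CA at -0.13, CASQ2 at 0.07 and CHRNA3 at 0.11.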

How the data were processed

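Values were the authors' deposited log2 expression, 1 per probe set and array, made with GCRMA per the submitters' processing notes, which name no version. GCRMA corrects background, normalises between arrays and summarises probes, and can compress differences of dim probe sets. The log2 scale was read from the values (4.37 to 14.5). Of 8793 probe sets, 47 controls were removed, and then the dimmest 33.3% by mean over all arrays (5.95 or less), which left 5830. Symbols came from the platform annotation, updated by Entrez identifier through RefSeq: 7840 probe sets had 1 symbol, 388 several and 518 none.

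Groups came from the sample titles. All 9 arrays were fitted at once with limma 3.58.1 in R 4.3.3 (lmFit, eBayes, 1 factor of 3 groups), with Benjamini-Hochberg adjustment over 5830 probe sets and a threshold of 0.05. An exact permutation test of 3 against 3 arrays cannot go below p = 0.1. Where a gene had several probe sets, that of highest mean was used. On data simulated for 5 µM against untreated with 5830 probe sets, 95% of 100 changes of 0.5 log2 and 100% of 100 of 1 log2 were recovered, with 5 false calls. All these changes were planted in 1 data set, with independent normal noise at the SD that limma estimated. That is many more changes than the 17 probe sets called on the real arrays, which eases the adjusted threshold. The recovery therefore checks the code and does not give the power of the real comparison.

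The genes and lists were chosen with earlier results of these data known. By rule, named genes are the 5 genes, their muscarinic and PPEF relatives, the gene of smallest p per list and comparison, and the 6 most correlated with each of the 5 (for CHRM3 and PPEF1 also with group means taken out). The other ITPR and ATP2B genes, PPP5C, CAMKK2, CREB1, GNAQ, GNA11, PLCB3, PLCB4 and the markers GATA3, DBH, PTPRC and EPCAM were named outside it, after their values were seen. The rule was not followed in full for the marker lists. Of their genes of smallest p, CHGA, ELAVL4, SLC18A1, CD74, CD79A, ELF3, DES, MYOG and TWIST1 were named and PRRX2 was not. Alternatives were other normalization, filters, moderation, a replicate block, a fit of 2 groups and leaving out arrays. Promoter sequences are RefSeq's (GRCh38.p14), matched by symbol for 5 of 5 genes. The number of arrays limits precision, with a median 95% half-width of 0.156 log2.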

Additional observations from a re-analysis of the deposited data

How the results depend on the processing

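The counts of changed probe sets moved most. In a fit of only the 2 groups 7 probe sets passed for 5 µM against untreated and 4 for 5 µM against 0.5 nM, and 1 and 1 with an unmoderated test. Leaving out 1 array gave 4 to 17 and 3 to 14. The other settings (quantile normalization, median centring, no filter, a stricter filter, an intensity trend) stayed within 1.5 times, 0 probe sets passed at 0.5 nM in any setting, and 0 pathway list genes passed in any comparison and setting. All 249 recomputed differences of the 5 genes stayed within 1 SD, pooled over that gene's 3 groups, a width that still let ITPR1 at 5 µM against untreated move to 0.09 without 5 µM replicate 3, against 0.18 with it. The adjusted p at 5 µM against untreated, by which the genes were chosen and which supports nothing, was under 0.05 in 7 of 8 other settings for CHRM3 and 5 of 8 for PPEF1. The 5 µM minus 0.5 nM difference of CAMK4, near 0, kept its sign in 7 of 9 fits without 1 array and 7 of 8 other settings. ITPR1 and ATP2B1 have no value with the stricter filter. With the replicate block 15, 0 and 15 probe sets passed, and PPEF1 at 5 µM against untreated had an adjusted p of 0.0573. Same-numbered arrays deviated together at r of -0.00035 to 0.33, and 4 of 9 arrays correlated best with their own number. On this ground the numbers were not taken as pairs. The pairs of replicate 3 lay at 0.298, 0.33 and 0.298, and those of replicate 1 at 0.03 to 0.07. What replicate 3 arrays may share was not tested. Signal over background could not be assessed, since scanner intensities were not used here.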

Other observations

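Correlations within groups were also listed for CHRM3 and PPEF1. After each group's mean was taken out, the genes most correlated with CHRM3 over the 9 arrays were SLC39A2 (r = 0.979), SSR2 (0.977), FAXDC2 (0.975), BARX2 (0.973), SLC6A3 (0.963) and RAB23 (0.956), and those with PPEF1 were TTK (0.978), TSPAN7 (0.972), ZBTB18 (0.969), NBAS (0.965), CDK14 (0.953) and CRYGA (0.941). None of these 12 was among the 6 most like CHRM3 or PPEF1 with the group means kept. PPEF1 and CAMK4 correlated at -0.72 within groups. These are descriptions over 9 arrays, among 5146 genes each. With so few arrays and so many genes some high correlations arise by coincidence, so nothing is read from the lists being different.

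Some arrays carried values identical in every deposited digit. CHRM3 read 7.33 log2 on untreated replicate 2 and on 0.5 nM replicate 2, and CAMK4 read 6.67 on 0.5 nM replicate 2 and on 5 µM replicate 1. At least 2 arrays shared an identical value in 3099 of the 5830 tested probe sets (53.2%), while arrays as a whole correlated at 0.997 or below.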
